A study of Mus musculus with 8 samples.

Results

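Slc26a4 encodes pendrin, an anion exchanger of the apical membrane of epithelial cells. The gene was chosen by its high ratio in the comparison described here, with earlier results of these data known, so its ratio against the control is given as values without a test. It is 1 of 8741 genes that the platform annotation names on these arrays, and 1 probe carries its name. The arrays are 2-colour spotted arrays on which lung RNA of a transgenic mouse was hybridised together with lung RNA of wild-type mice.

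The transgenic group held 4 male mice with a Fra-2 (Fosl-2 gene) transgene, and the control was 1 pool of RNA from 4 wild-type males. The tissue was whole lung, the age 14 weeks and the background C57BL6 x CBA in both groups. The labels name neither the promoter of the transgene nor the number of founder lines, and mice of 6 and 10 weeks are not analysed here. Each transgenic mouse had 1 array with its RNA in the dye Cy5 and 1 with its RNA in Cy3, which makes 8 arrays. Both arrays of each animal enter as their mean (n = 4 mice). The pool is a single control sample, and the spread between wild-type mice is unknown.

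Pendrin exchanges chloride for bicarbonate, iodide or thiocyanate. It is known for moving iodide in thyroid follicular cells, for bicarbonate secretion by intercalated cells of the kidney and for fluid balance in the inner ear, and loss of the human gene causes Pendred syndrome. In airway epithelium it is low at rest and is induced by the type 2 cytokines IL-4 and IL-13 and by IL-17, and there it supplies bicarbonate to the surface liquid and thiocyanate to the peroxidase system.

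The stretch of DNA before the start of the gene is shown because the text below turns on this 1 gene, and because Fra-2 belongs to the AP-1 family and IL-4 and IL-13 act through STAT6, which bind short motifs of their own. It holds the 250 bases before the RefSeq start of Slc26a4, chr12:31559985-31560234 on the minus strand of GRCm38.p6, read 5′ to 3′ along the gene. The capitals mark the match to the TATA box.
Slc26a4: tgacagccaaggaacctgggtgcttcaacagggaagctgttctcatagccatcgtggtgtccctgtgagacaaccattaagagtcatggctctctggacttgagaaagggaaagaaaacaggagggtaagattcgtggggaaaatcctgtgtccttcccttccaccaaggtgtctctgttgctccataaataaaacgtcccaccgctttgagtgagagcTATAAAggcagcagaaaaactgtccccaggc
The TATA box letters TATAAA, searched on both strands, began at position -31 and occurred in 12.4% of 32851 windows of this length before RefSeq starts. The AP-1 letters TGANTCA had 0 matches, against 6.75% of windows with a match. The STAT6 type, TTC and GAA set 4 bases apart, and the common STAT letters TTCNNNGAA had 0 matches each, against 5.85% and 7.02% of windows. These letters are not in this window, which says nothing of sites elsewhere or of the factors themselves.

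The gene name rests on a fixed shift between the annotation and the value table, in which annotation number plus 11 gives the row. Over 4714 pairs of probes annotated to the same gene, the mean log2 ratios correlated at a Spearman coefficient of 0.228 at this shift, and at no more than 0.055 at any other of 121 shifts tried. Among the 476 pairs with a probe within 500 numbers of the Slc26a4 probe the coefficient was 0.237 at the shift of 11 and at most 0.150 at any other. The 20 rows around the Slc26a4 row had means between -0.26 and 0.24, and none of them neared the values given below for the Slc26a4 row. With no shift, the row would have a mean of 0.03. As the gene was chosen for its high ratio at the shift of 11, lower values at other rows do not bear on whether the name is right. A second probe of the gene, which could check the name within the array, was not found under the annotation used here.

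The direction of the ratios is likely only. Values are given as transgenic over pool because the labels list the transgenic RNA as channel 1 on all arrays, whichever dye it carried. Under the opposite direction each ratio given here changes its sign, and ranks and orders from the top run from the bottom.

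One array stood apart from the rest. The array of mouse 4 with transgenic RNA in Cy3 had an interquartile range of 0.91 over all its log2 ratios, against 0.45 to 0.52 on the other 7 arrays. The mean of Slc26a4 without it was 2.96 ± 0.87 (SD, n = 4 mice). The arrays gave 20585 to 20729 usable ratios each, and none of the 8 values of Slc26a4 was missing.

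Slc26a4 was high on every array. In mouse 1 its log2 ratio was 4.07 with the transgenic RNA in Cy5 and 3.85 with the dyes swapped, a mean of 3.96 or 15.5-fold. In mouse 2 the ratios were 2.12 and 1.80, a mean of 1.96 or 3.89-fold. The lung of mouse 3 gave 3.83 and 2.82, a mean of 3.33 or 10.0-fold. The lung of mouse 4 gave 2.60 and 1.82, a mean of 2.21 or 4.63-fold. All 8 values were at least 1.80, with mouse 1 the highest and mouse 2 the lowest, and the arrays of mouse 3 lay above those of mice 2 and 4. The mean over mice was 2.86 ± 0.94 (SD, n = 4), which is 7.28-fold. As this is RNA of whole lung, more cells that express the gene and more of its RNA per cell cannot be told apart.

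**Figure D1:**
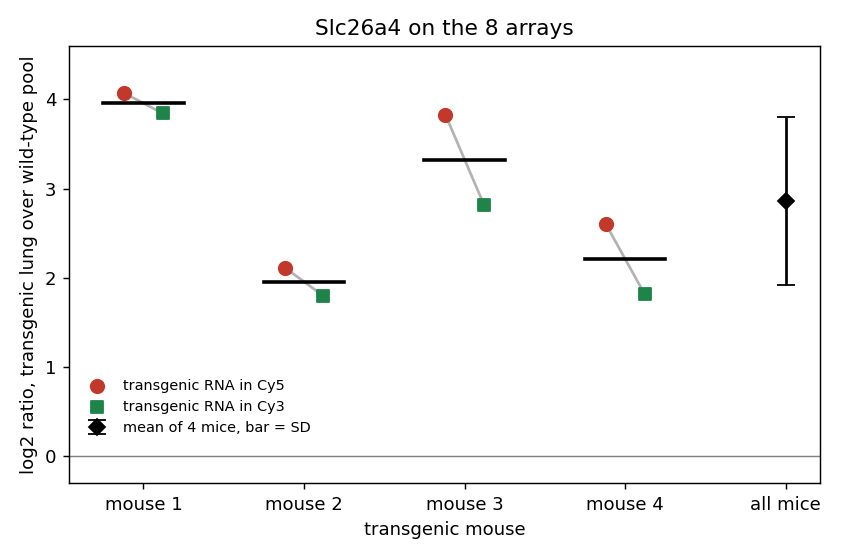
Log2 ratio of Slc26a4, transgenic lung over wild-type pool, by mouse. Circles are arrays with transgenic RNA in Cy5, squares arrays with it in Cy3, black lines the mouse means and the diamond the mean of 4 mice with its SD; the 8 values run from 1.80 to 4.07, and the Cy5 array is the higher of each pair.

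Few probes had a higher ratio. By its mean, the Slc26a4 probe was 12th of 20621 probes and 8th of the 12202 named ones, counted from the top or, under the opposite direction, from the bottom, which describes the rule that chose it and tests nothing. On single arrays it was between 5th and 45th from the top on 7 arrays and 456th on the array of mouse 4 in Cy3, whose ratios were spread more widely. Among 182 genes of the solute carrier families, to which pendrin belongs, it had the highest mean (the lowest under the opposite direction), ahead of Slc5a1 at 1.83 ± 0.66, the gene of the sodium and glucose cotransporter SGLT1. Means of at least 1 were found for 4 of these 182 genes.

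The ratio of Slc26a4 differed between mice. The range of the mouse means was 2.00 on the log2 scale, a 4.00-fold difference between mouse 1 and mouse 2, and the SD over mice was larger than that of 99.6% of all probes. The median SD of all probes was 0.19, and the genes nearest to Slc26a4 in level, given below, had SDs from 0.48 (Ccl6) to 1.48 (Gpnmb). With dye as a covariate, the F test of limma over 8 arrays gave an adjusted p of 0.0388 over 20392 probes, of which 0.986% were called. That test sets mice against the 2 arrays of each mouse, so its error is technical. The call was lost without mouse 1 (adjusted p = 0.147), mouse 2 (adjusted p = 0.237) or mouse 3 (adjusted p = 0.182), and without the dye covariate (adjusted p = 0.147). Without the array of mouse 4 in Cy3 it was kept (adjusted p = 0.0358).

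Of the 6 pairs of mice, 2 differed in Slc26a4 by limma with adjustment over all probes. Mouse 1 exceeded mouse 2 by 2.00 ± 0.23 (SE, adjusted p = 0.0371), in a comparison that called 0.593% of probes. Mouse 3 exceeded mouse 2 by 1.37 ± 0.23 (SE, adjusted p = 0.0457), where 1.66% were called. The difference of mouse 1 over mouse 4 was 1.75 (adjusted p = 0.0682, 0.147% of probes called) and that of mouse 3 over mouse 4 was 1.12 (adjusted p = 0.0859, 0.809% called), and neither passed. Of the other pairs, mouse 1 over mouse 3 was 0.63 (adjusted p = 0.9995, 0.0343% called) and mouse 4 over mouse 2 was 0.25 (adjusted p = 0.640). Of the 3 pairs of neighbours in the order 1, 3, 4 and 2, none passed over all probes, although both arrays of mouse 1 lay above both of mouse 3, and both of mouse 3 above both of mouse 4. The SE was 0.23 for every pair.

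In each mouse the difference between dyes was smaller than the range of the mouse means, 2.00. The Cy5 array gave the higher ratio in 4 of 4 mice, by 0.23, 0.32, 1.01 and 0.78 in mice 1 to 4. The mean difference, Cy5 minus Cy3, was 0.58 ± 0.16 (SE, n = 4 mice, limma unadjusted p = 0.00976, adjusted p = 0.170), which did not pass over all probes. In that comparison 0.0049% of probes, 1 of 20392, were called. The mean of Slc26a4 was 3.16 ± 0.95 (SD) on the 4 Cy5 arrays and 2.57 ± 0.97 (SD) on the 4 Cy3 arrays.

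Lists of genes around pendrin were read off a limma fit of the ratio against 0 over all 8692 named genes with values, with Benjamini-Hochberg adjustment and a threshold of 0.05. Over all of these, 31.9% were called, 13.5% higher and 18.4% lower, with a median log2 ratio of -0.01. Each list count below is to be read beside these shares. Counts below leave out Slc26a4 itself, and the lists were chosen with earlier results of these data known. A gene with several probes is given as the mean over them. Beside counts of 0, the number of genes with an unadjusted limma p under 0.05 is given.

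The other measured members of the SLC26 family had ratios near or below 0. Of 10 other family genes in the list, 3 were measured, with 0 higher (0 unadjusted) and 1 lower and a median of -0.07. The sulfate transporter genes Slc26a1 and Slc26a2 had 0.06 ± 0.23 and -0.07 ± 0.23 (SD, n = 4 mice) and did not pass. Slc26a11, a further anion transporter gene of the family, fell by 0.43 ± 0.09 (adjusted p = 0.00641) and lay between -0.49 and -0.29 in the 4 mice. Slc26a3, which lies 2 protein-coding genes from Slc26a4 on chromosome 12, is not named by the annotation used here. The nearest named genes on that chromosome were 5 and 6 protein-coding genes away. Hbp1, which encodes a transcriptional repressor, fell by 0.49 ± 0.18 (adjusted p = 0.00757), and Prkar2b, a regulatory subunit gene of protein kinase A, had 0.01 ± 0.08.

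Genes that work beside pendrin in airway anion and fluid transport had ratios in both directions. The measured ones had smaller ratios than Slc26a4, which was itself chosen for its high ratio. Of 37 genes in the list 21 were measured, with 4 higher, 3 lower and a median of 0.04. Of all named genes 13.5% were higher and 18.4% lower, so these counts are near those shares. Cftr, the gene of the chloride channel mutated in cystic fibrosis, was 0.62, 0.54, 0.62 and 0.55 in mice 1 to 4 and rose by 0.58 ± 0.04 (adjusted p = 0.00207). Its mice lay close together, where those of Slc26a4 spanned 2.00. Slc4a2, a gene of another chloride and bicarbonate exchanger, rose by 0.71 ± 0.06 (adjusted p = 0.00121). The potassium channel genes Kcne3 (0.96 ± 0.65, adjusted p = 0.0161) and Kcnn4 (0.85 ± 0.22, adjusted p = 0.00187) rose too, with Kcnn4 probes at 0.27 and 1.43. The aquaporin gene Aqp5 (-0.55 ± 0.24, adjusted p = 0.00876), the sodium pump gene Atp1b1 (-0.46 ± 0.26, adjusted p = 0.0176) and Slc12a2, the gene of the chloride cotransporter NKCC1 (-0.28 ± 0.08, adjusted p = 0.0239), fell. Ano1, the gene of the calcium-activated chloride channel, had -0.21 ± 0.26 (adjusted p = 0.163). The count of 3 lower was 1 without mouse 1 and 1 without mouse 3. Kcne3 lost its call when mouse 2 or 4 was left out (adjusted p = 0.0623 and 0.0601), Atp1b1 without mouse 1 or 3 (adjusted p = 0.0716 and 0.0603), and Slc12a2 without mouse 1, 2 or 3 (adjusted p = 0.0828, 0.0989 and 0.0528). Without the array of mouse 4 in Cy3, Atp1b1 missed it as well (adjusted p = 0.214).

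Ionocytes of the airway and intercalated cells of the kidney are rich in anion exchangers and proton pumps. Of 18 genes of these cells 10 were measured, with 2 higher, 0 lower (0 unadjusted) and a median of 0.14. The 2 were Cftr and the proton pump gene Atp6v1g3 (0.32 ± 0.10, adjusted p = 0.0172). Atp6v1g3 lost its call when mouse 1 or 3 was left out (adjusted p = 0.0795 and 0.0691), which left 1 gene. Foxi1, the transcription factor gene that defines these cells and drives pendrin in kidney and ear, had -0.17 ± 0.10 (adjusted p = 0.115). Only ratios were used here, so the level of a defining marker in the tissue is unknown.

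Of the 7 pathway lists, the one for the type 2 response of epithelium and lung had the median farthest from 0, and 3 of its genes had larger ratios than Slc26a4 in the same direction. Of 29 such genes 11 were measured, with 9 higher, 1 lower and a median of 1.48. The list medians in mice 1 to 4 were 1.04, 1.98, 1.74 and 1.98, lowest in mouse 1, where Slc26a4 was highest. Retnla, which encodes RELM-alpha, rose by 5.96 ± 0.46 (adjusted p = 1.4e-05), and Ccl8, a chemokine gene, by 4.59 ± 0.87 (adjusted p = 3.9e-04). Chil3, the gene of the chitinase-like protein Ym1, rose by 4.43 ± 0.41 (adjusted p = 2.9e-05). Ccl17, the gene of a chemokine that draws type 2 T cells, rose by 1.81 ± 0.52 (adjusted p = 0.00127). Postn, the periostin gene, fell by 1.08 ± 0.46 (adjusted p = 0.00416). The genes of this list did not run alike over the mice. Ccl8 and Chil3 had the mouse order of Slc26a4, with Chil3 at 4.95, 3.96, 4.50 and 4.32 in mice 1 to 4. Retnla and Ccl17 were highest in mice 2 and 4, as were the goblet cell genes Spdef, Foxa3 and Tff2 of the list. The mucin genes Muc5ac and Muc5b and the goblet cell gene Clca1 are not named by the annotation used here.

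The cytokine side of the type 2 pathway, which acts upstream of pendrin, showed smaller ratios. Of 24 genes 9 were measured, with 4 higher, 2 lower and a median of 0.03. Socs1, a feedback inhibitor gene of cytokine signalling, was 1.52, 0.56, 1.0 and 0.55 in mice 1 to 4 and rose by 0.91 ± 0.46 (adjusted p = 0.00718). Like Slc26a4 it was highest in mouse 1 and next in mouse 3, but the F test between mice did not call it (adjusted p = 0.110). Cish, a second such inhibitor gene, rose by 0.42 ± 0.18 (adjusted p = 0.0120), and the kinase genes Jak3 (0.37 ± 0.17, adjusted p = 0.0182) and Tyk2 (0.27 ± 0.07, adjusted p = 0.0256) rose as well. Gata3, the transcription factor gene of type 2 T cells, fell by 0.43 ± 0.34 (adjusted p = 0.0410), and Tslp, an epithelial cytokine gene that starts type 2 responses, fell by 0.39 ± 0.20 (adjusted p = 0.0186). Il4 had -0.15 ± 0.25 (adjusted p = 0.311). The genes Il4ra and Stat6 are not named by the annotation used here, and the probe of Il13 lies in the last stretch of annotation numbers, where names were not used. The count of 4 higher was 1 without mouse 1, 2 without mouse 3 and 1 on the Cy3 arrays alone, and the count of 2 lower was between 0 and 1 without any single mouse. It was 1 on the arrays of either dye orientation alone, with the values as deposited and without the array of mouse 4 in Cy3. Of these genes Cish missed the threshold without mouse 1 (adjusted p = 0.0555), Jak3 without mouse 1 or 3 (adjusted p = 0.0737 and 0.0691), Gata3 without mouse 1, 2 or 4 (adjusted p = 0.113, 0.145 and 0.136), Tslp without mouse 2 or 3 (adjusted p = 0.0586 and 0.0608) and Tyk2 without any single mouse (adjusted p = 0.0554 to 0.0837).

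IL-17, the other inducer of pendrin, acts on a set of epithelial defence genes. Of 26 genes of that response 14 were measured, with 6 higher, 3 lower and a median of 0.22. Saa3, the gene of an acute phase protein made in lung, rose by 2.94 ± 0.61 (adjusted p = 5.7e-04), close to the 2.86 of Slc26a4, and Saa1 rose by 1.06 ± 0.23 (adjusted p = 0.00114). Lcn2, the lipocalin 2 gene, had 0.93 ± 0.41 (adjusted p = 0.00510) as the mean of probes at 2.38 and -0.52, so its direction depends on the probe. Cxcl1, a neutrophil chemokine gene, rose by 0.36 ± 0.26 (adjusted p = 0.0385). The calgranulin genes S100a8 (-1.09 ± 0.66, adjusted p = 0.0112) and S100a9 (-0.42 ± 0.30, adjusted p = 0.0306, probes at -1.04 and 0.19) and the cytokine gene Il1b (-0.50 ± 0.28, adjusted p = 0.0151) fell. The 6 higher became 3 without mouse 3, and the 3 lower became 1 without mouse 2, 3 or 4. Cxcl1 missed the threshold without mouse 2, 3 or 4 (adjusted p = 0.0638, 0.128 and 0.122), S100a8 without mouse 4 (adjusted p = 0.0551), S100a9 without mouse 2, 3 or 4 (adjusted p = 0.0999, 0.0888 and 0.104) and Il1b without mouse 2 or 3 (adjusted p = 0.0628 and 0.0507).

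Pendrin carries thiocyanate, which lactoperoxidase oxidises with peroxide made by the dual oxidases. Of 16 oxidase and peroxidase genes 7 were measured, with 1 higher, 0 lower (0 unadjusted) and a median of 0.23. Cyba, a subunit gene of the phagocyte oxidase, was 1.44, 0.55, 0.96 and 0.65 in mice 1 to 4, the order of Slc26a4, and rose by 0.90 ± 0.40 (adjusted p = 0.00525). The F test between mice did not call Cyba (adjusted p = 0.217). The lactoperoxidase gene Lpo had 0.22 ± 0.25 (adjusted p = 0.138). Duox1 and Duox2 are not named by the annotation used here. The count of 1 was 2 without mouse 3, on the Cy5 arrays alone and with the mouse as a random block.

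**Figure D2:**
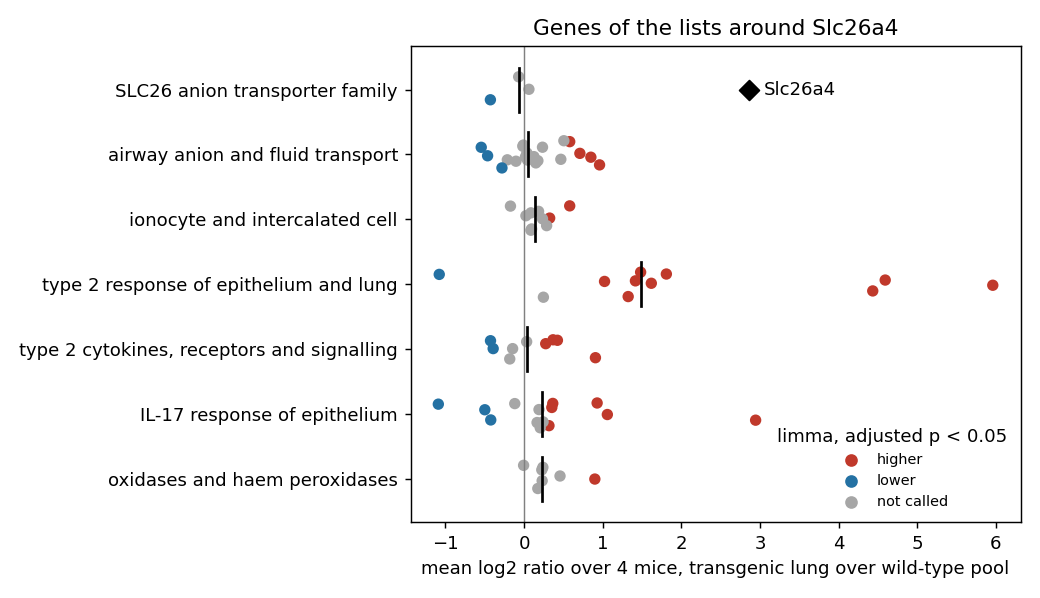
Mean log2 ratio over 4 mice for the measured genes of 7 lists, 1 point a gene and 1 row a list, with vertical bars at the list medians without Slc26a4; vertical scatter within a row has no meaning. Colours give the limma call; Slc26a4 (diamond, 2.86, not tested) lies to the right of all other measured genes of its family, the transport list and the ionocyte list, while Retnla, Ccl8 and Chil3 of the type 2 response list lie further right.

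Genes with values most like those of Slc26a4 were sought by the root mean square difference of log2 ratios over the 8 arrays, among 12097 named probes with all 8 values. Ctsk, the cathepsin K gene, was nearest at a difference of 0.49, with 3.39, 1.86, 3.07 and 2.57 in mice 1 to 4. The chemokine gene Ccl9 followed at 0.51, with 3.93, 2.02, 3.43 and 3.07. Both were highest in mouse 1, next in mouse 3 and lowest in mouse 2, as Slc26a4 was. The higher probe of Lcn2 (0.67), Saa3 (0.75), the chemokine gene Ccl6 (0.79) and Gpnmb (0.86), which encodes a glycoprotein of macrophages and bone cells, completed the 6. All 6 were above 0 on 8 of 8 arrays. Gpnmb had 3.59, 1.15, 3.76 and 1.06, a wider range than Slc26a4. A small difference reflects level as well as pattern, and all points of an array share its hybridisation and the pool.

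The pattern alone was compared by centring each probe on its own mean over the 4 mice, among the 97 named probes with a mean of at least 1. Slc6a20a, which encodes an amino acid transporter of epithelia, was nearest at a root mean square difference of 0.19, with 1.96, 0.43, 1.69 and 0.68 in mice 1 to 4. The complement gene C1qa (0.23) had 2.64, 1.02, 2.36 and 1.55, and Ccl8 (0.25) had 5.55, 3.51, 4.95 and 4.36. The lipoprotein-associated phospholipase gene Pla2g7 (0.27, the highest of 3 probes, whose mean was 0.52 ± 0.28), the guanylate binding protein gene Gbp8 (0.30) and Slc5a1 (0.32) followed. As these genes were chosen for their pattern over the mice, it is given without a test. The full order of mice seen for Slc26a4, with 1 above 3, 3 above 4 and 4 above 2, was found in 25 of the other 96 probes, and in 3.84% of all 20621 probes. With 4 mice this is a description.

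Markers of airway cell types were read in the same mice, as whole lists, and the genes are named after their values were seen. Of 7 basal cell markers 3 were measured, with 2 higher and medians of 1.04, 0.03, 0.52 and 0.87 in mice 1 to 4, so mouse 1 was highest and mouse 2 lowest, as for Slc26a4. Of 10 goblet and secretory markers 3 were measured, and all 3 rose. The same 3 genes are also counted in the type 2 response list above. The transcription factor gene Spdef, which drives goblet cell formation, was 1.02, 2.02, 0.83 and 1.80 in mice 1 to 4, its partner Foxa3 was 1.04, 1.69, 1.21 and 1.98, and the trefoil factor gene Tff2 was 0.60, 2.71, 1.06 and 2.10. These were lowest in mice 1 and 3, where Slc26a4 was highest. Of the 3 the F test called Tff2 (adjusted p = 0.0178), not Spdef (adjusted p = 0.0616) or Foxa3 (adjusted p = 0.282).

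Club cell markers were measured for 6 of 10 genes, with 0 higher (0 unadjusted) and 4 lower and medians of -1.66, -0.30, -1.52 and -0.59 in mice 1 to 4. Cyp2f2, a cytochrome gene of club cells, was -1.71, 0.11, -2.15 and 0.04, and Pon1, the paraoxonase 1 gene, was -2.39, -1.03, -2.88 and -1.42. All 6 genes were lowest in mice 1 and 3, the mice with the highest Slc26a4. How many of all probes were lowest in these mice was not counted. By the F test, which called 0.986% of all probes, 4 of the 6 had a probe that differed between mice. Ciliated cell markers, measured for 7 of 10 genes, had 0 called by limma (2 lower unadjusted) and medians of -0.27, 0.27, -0.56 and -0.07. Macrophage markers, 7 of 12 measured, had 5 higher and 1 lower and medians of 1.55, 0.78, 1.31 and 0.80, and C1qa and C1qc differed between mice. The part of these cell types in the ratio of Slc26a4 was not tested.

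**Figure D3:**
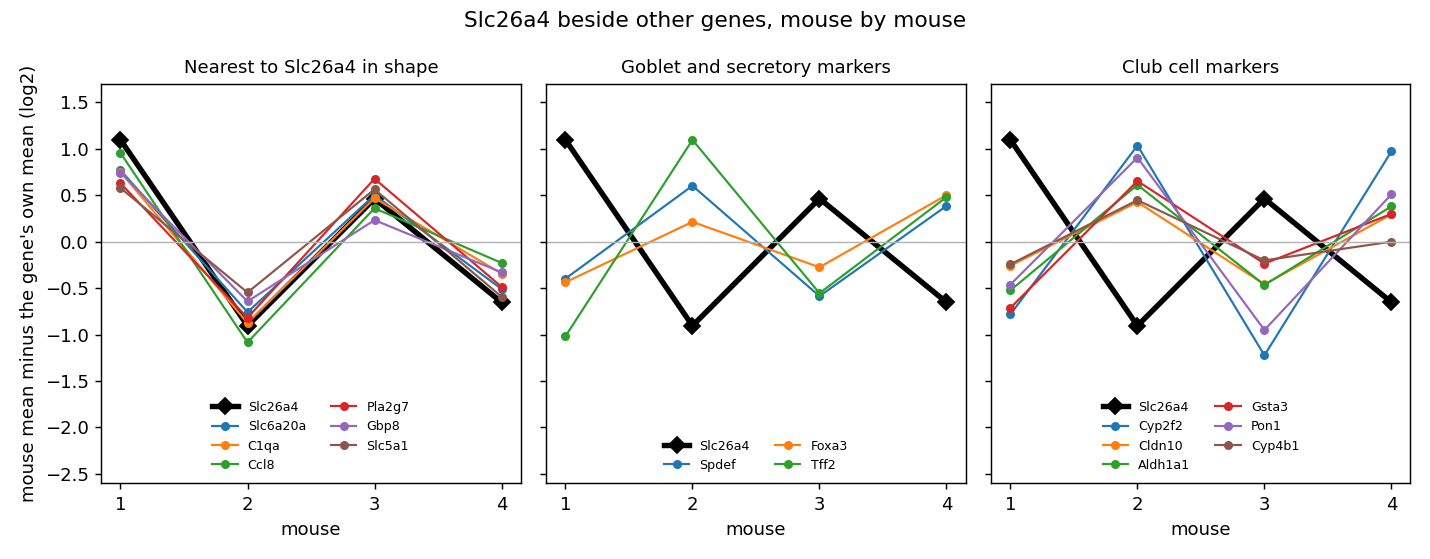
Mouse means of log2 ratios minus each gene's own mean over the 4 mice, for Slc26a4 (black) beside the 6 nearest genes in pattern, 3 goblet and secretory markers and 6 club cell markers; lines only join the points of a gene. Slc26a4 and its nearest genes are high in mice 1 and 3, while the goblet and club markers are low there.

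Thyroid tissue, where pendrin is abundant, was checked by its markers. Of 9 thyroid markers 2 were measured, with Tshr, the thyrotropin receptor gene, at 0.23 ± 0.20 (adjusted p = 0.104), and Iyd, which encodes an iodotyrosine deiodinase, lower by log2 -0.87 ± 0.58 (adjusted p = 0.0157). In mice 1 to 4 Tshr was 0.25, -0.07, 0.39 and 0.34 and Iyd was -1.02, -0.25, -1.60 and -0.62. The thyroglobulin gene Tg is not named by the annotation used here.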

How the data were processed

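Lung RNA of 4 transgenic mice was hybridised on 8 dye-swapped 2-colour arrays against 1 wild-type pool, with RNA labelled indirectly after RNeasy isolation, per the labels' protocols. The authors deposited a log2 ratio for each probe on each array. How background, normalization and centring were handled was not given in the sources used here. Spot intensities were not used, so signal over background is unknown; the number of arrays limits the precision.

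Values beyond 10 in size (498, placeholders near 16) were set to missing, and 706 others were missing as deposited. Of 20794 probes, 12296 were named (0 with several genes) through the platform annotation, with symbols checked against RefSeq (GRCm38.p6); the promoter is from RefSeq. For the mean over mice, a probe or gene was tested if each mouse had a value. Tests between mice and between dyes used the probes with values on all 8 arrays. Arrays were averaged per mouse and fitted with limma 3.58.1 in R 4.3.3 (lmFit, eBayes, two-sided, Benjamini-Hochberg over all features, threshold 0.05). Mouse differences used the 8 arrays with a dye term. The fits were tested on simulated data; tables used Python 3.11.15.

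Slc26a4, the lists and the tests were chosen with earlier results of these data known. Named genes were Slc26a4, its family, up to 4 called genes per list and direction, 10 listed genes of the pathway where measured, and the 6 nearest by each measure of likeness. Il4, Lpo, Hbp1, Prkar2b, Arg1 and cell type markers were named after their values were seen. Alternatives were leaving out each mouse, centring, each dye orientation alone, values as deposited, 1 probe per gene, the mouse as a random block, no dye covariate and no name shift.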

Additional observations from a re-analysis of the deposited data

Results flagged for a closer look

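S100a8, a calgranulin gene of the IL-17 response list, had 1 mouse far from the others: mouse 1 was at a log2 ratio of -0.11, against -1.55 to -1.32 in mice 2 to 4. Mouse 1 was also the mouse with the highest Slc26a4. The gap made up 0.835 of the range, above the critical value of Dixon's test for 4 values. Of 42 genes checked over the 4 mice, Slc26a4 among them, 1 met this. Chance alone gives about 1 in 20, so 1 of 42 is no more than chance gives.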

How the results depend on the processing

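The mean log2 ratio of Slc26a4, 2.86, lay between 2.50 and 3.17 when each mouse was left out, was 2.88 with each array centred on its median, 3.16 on the Cy5 arrays and 2.57 on the Cy3 arrays, and was the same with values as deposited. With no shift between annotation number and row it was 0.0276, which is another probe. The difference between mice had an adjusted p of 0.0249 to 0.237 without 1 mouse and of 0.147 without the dye covariate; with centred arrays it was 0.0425. The dye difference was 0.44 to 0.70 without 1 mouse and did not pass there, with centred arrays (adjusted p = 0.164) or without the array of mouse 4 in Cy3 (adjusted p = 0.228).

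Over the 7 lists together, without Slc26a4, 25 of 73 measured genes were higher and 10 lower, and leaving out 1 mouse gave 18 to 22 and 5 to 7. Of all named genes 13.5% were higher and 18.4% lower. The type 2 response list, chosen with earlier results known, gave 9 of the 25. Leaving out 1 mouse gave 1 to 3 lower for transport, 1 to 2 higher for ionocytes, 1 to 3 higher and 0 to 1 lower for type 2 cytokines and signalling, 3 to 5 higher and 1 to 3 lower for the IL-17 response, and 1 to 2 higher for oxidases. On the Cy5 arrays alone ionocyte genes had 4 higher, oxidases 2 higher and type 2 cytokines 1 lower; on the Cy3 arrays alone ionocyte genes had 1 higher and type 2 cytokines 1 higher and 1 lower. Type 2 cytokines had 1 lower with values as deposited and without the array of mouse 4 in Cy3, an alternative chosen after seeing the data. Oxidases had 2 higher with the mouse as a random block. On the Cy5 arrays alone Atp1b1, Gata3, Cxcl1 and Il1b lost their calls (limma adjusted p = 0.0575 to 0.26). On the Cy3 arrays alone Jak3, Slc12a2, Tslp, Atp6v1g3, Cish, Kcne3, Tyk2, Cxcl1 and S100a9 lost theirs (adjusted p = 0.0681 to 0.261). Cxcl1 and Gata3 missed the threshold with values as deposited (adjusted p = 0.0567 and 0.0637), and Tyk2 with 1 probe per gene (adjusted p = 0.0801). Lcn2 reversed to -0.52 with 1 probe per gene, since its 2 probes oppose. Of 451 values of the 41 other named genes, 397 kept their direction and side of the threshold, 49 kept the direction only and 5 changed sign. Beside Lcn2 these were Slc26a1 and Slc26a2, which were not called: Slc26a1 lay between -0.0202 (without mouse 3) and 0.164 when 1 mouse was left out and was -0.0338 on the Cy5 arrays, and Slc26a2 lay between -0.163 and 0.0247 (without mouse 1) and was 0.00625 without the array of mouse 4 in Cy3. Other causes were not tested. No paired analysis was possible because there is 1 group of mice and the control is 1 pool.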

Other observations

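Markers of basal cells and of granulocytes of type 2 responses were also measured beside Slc26a4, and were named after their values were seen. Of the basal cell markers, the keratin genes Krt5 (0.86 ± 0.46, SD, n = 4 mice, limma adjusted p = 0.00888) and Krt15 (0.80 ± 0.74, adjusted p = 0.0448) rose. Krt15 was 1.79, 0.03, 0.52 and 0.87 in mice 1 to 4, so it shared with Slc26a4 the highest and the lowest mouse. Krt5 was 1.04, 0.18, 0.99 and 1.22, lowest in mouse 2 but highest in mouse 4. The limma F test between mice called Krt15 (adjusted p = 0.0304), not Krt5 (adjusted p = 0.100) or Krt14 (adjusted p = 0.331). Of 9 eosinophil markers 3 were measured, with 0 higher (0 with an unadjusted p under 0.05): the eosinophil peroxidase gene Epx had 0.17 ± 0.30 (adjusted p = 0.288), Prg2 had 0.01 ± 0.25 (adjusted p = 0.943), and Prg3 fell by 0.49 ± 0.10 (adjusted p = 0.00444). Of 9 mast cell and basophil markers 4 were measured, with 1 higher and 1 lower. Mcpt8 rose by 0.51 ± 0.34 (adjusted p = 0.0234) and Gata2 fell by 0.30 ± 0.13 (adjusted p = 0.0253), while Cpa3 and Tpsb2 were not called.

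Arg1, the arginase 1 gene of alternatively activated macrophages, was 2.24, 0.50, 2.00 and 0.56 in mice 1 to 4 as the mean of 2 probes, which had means of 0.64 and 2.00. It rose by 1.32 ± 0.93 (adjusted p = 0.0169). Like Slc26a4 it was highest in mice 1 and 3. The median of the type 2 response list, which holds Arg1, did not share this, at 1.04, 1.98, 1.74 and 1.98 in mice 1 to 4. Its genes were split. Ccl8 and Chil3 were highest in mice 1 and 3 too. Retnla, Ccl17, Spdef, Foxa3 and Tff2 were highest in mice 2 and 4.

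Of 9 type 1 alveolar markers 6 were measured and 5 were lower, with mouse medians of -0.93 to -0.61. Of 11 neutrophil markers 7 were measured, with 4 higher and 3 lower and mouse medians of 0.0045 to 0.36. Their part in the ratio of Slc26a4 was not tested.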
